A study of Homo sapiens with 8 samples.

Results

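Death receptors are members of the tumor necrosis factor (TNF) receptor superfamily that carry a death domain in their cytoplasmic tail. When a ligand such as TRAIL, Fas ligand or TNF binds them, they assemble adaptor proteins that either activate caspase-8 and apoptosis or, through the kinase RIPK1 and ubiquitin chains, activate NF-κB and survival genes. The caspase-8 homologue c-FLIP competes for the adaptor and restrains the death signal, and these routes are studied in pancreatic beta cells because inflammatory cytokines of the islet in type 1 diabetes can engage them.

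Here 9 genes of this system were followed, chosen by name: the ligand gene TNFSF10, the receptor genes TNFRSF10A, TNFRSF10B, FAS and TNFRSF1B, the adaptor genes FADD and TRADD, the kinase gene RIPK1 and the inhibitor gene CFLAR. Of these, 8 had a row among the 16525 genes of the expression table, and TNFRSF10A was not analysed here. TNFRSF1B encodes TNF receptor 2, which has no death domain, and was kept with the others as chosen. The gene for TNF receptor 1, TNFRSF1A, was likewise not analysed here.

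The cells were EndoC-βH5, a human beta-cell line from fetal pancreatic rudiments that was immortalised with SV40 large T antigen and human telomerase, transgenes that were later removed. RNA was sequenced from 4 untreated control cultures and 4 cultures exposed for 48 h to 50 U/mL interleukin-1β (IL-1β), 1000 U/mL interferon γ (IFNγ) and 1000 U/mL TNFα together. All libraries come from 1 cell line, the libraries used hold the cytokines only in combination, and nothing in the labels says how separate the cultures were, so p-values measure the spread between these samples, which may be technical. Values are counts scaled to 1000000 reads per library (CPM), with 46767972 to 51145634 reads behind each library, of which 36577438 to 40117636 fell on the listed genes.

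Libraries are named A to D within each group, since a control and a cytokine column share the first part of their names. The second part of the names is 21 for A and B and 22 for C and D, and what it stands for is not stated. All 12 listed beta-cell markers, INS, PDX1 and MAFA among them, were in the table. Their summed level was 24041 to 36820 CPM in control and 29139 to 52867 CPM in cytokine libraries. By the rule for calls given below, 7 of the 12 were called lower and 0 higher. Of all genes 17.5% were called lower and 9.52% higher, on library totals. The 6 listed hormone and marker genes of other islet cells were in the table too, at a summed 476 to 2201 CPM in control and 564 to 2014 CPM in cytokine libraries. Of 8 exocrine and duct markers 2 had a row, CPA1 and KRT19, at 88.2 to 167 CPM in control and 84.6 to 166 CPM in cytokine libraries. Of 12 immune markers only CD14 had a row, at 1.07 to 3.26 CPM in control and 1.23 to 1.95 CPM in cytokine libraries, and none of 5 endothelial markers had one. In bulk RNA, a change in the share of a cell population cannot be told apart from a change in RNA per cell, and the part of these markers in the results was not tested.

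After exposure to the cytokines, 4 of the 7 genes that exceeded 0.5 CPM in every library rose: FAS, TNFSF10, TNFRSF10B and CFLAR. TNFRSF1B was also called higher, but no control library of it exceeded 0.5 CPM, the filter of the table. It therefore passed only through other columns, and its difference is no test. FAS, the receptor for Fas ligand, went from near the detection filter to 25.6 times its control mean, and TNFSF10, the gene of the ligand TRAIL, to 7.13 times. RIPK1, a kinase gene, passed the FDR but not the fold threshold, the adaptor genes FADD and TRADD passed neither, and none of the 8 was called lower. A gene was called when its log2 fold change exceeded 0.5 in size with an FDR (Benjamini-Hochberg adjusted p) below 0.05 in limma across all genes. Of all genes tested 27.0% were called, 9.52% higher and 17.5% lower, against 5 of 8 higher, TNFRSF1B included, and 0 of 8 lower here. In this fit, which has no block for the pairs, no member was lower at an unadjusted p below 0.05 either, and edgeR and DESeq2 called 0 lower. With the pairs as a replicate block in limma FADD was lower at an adjusted p of 0.0135, under the fold threshold at -0.32. The same block in edgeR with TMM gave -0.17 for FADD, with an adjusted p of 0.136. For 6 of the 8 genes, TNFRSF1B again among them, no control library overlapped the cytokine libraries, which was so for 32.8% of all genes. Among all called genes 64.8% were lower on library totals, and 47.3% after TMM scaling, which moved the median over all genes from -0.17 to -0.02 on the log2 scale.

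**Figure D1:**
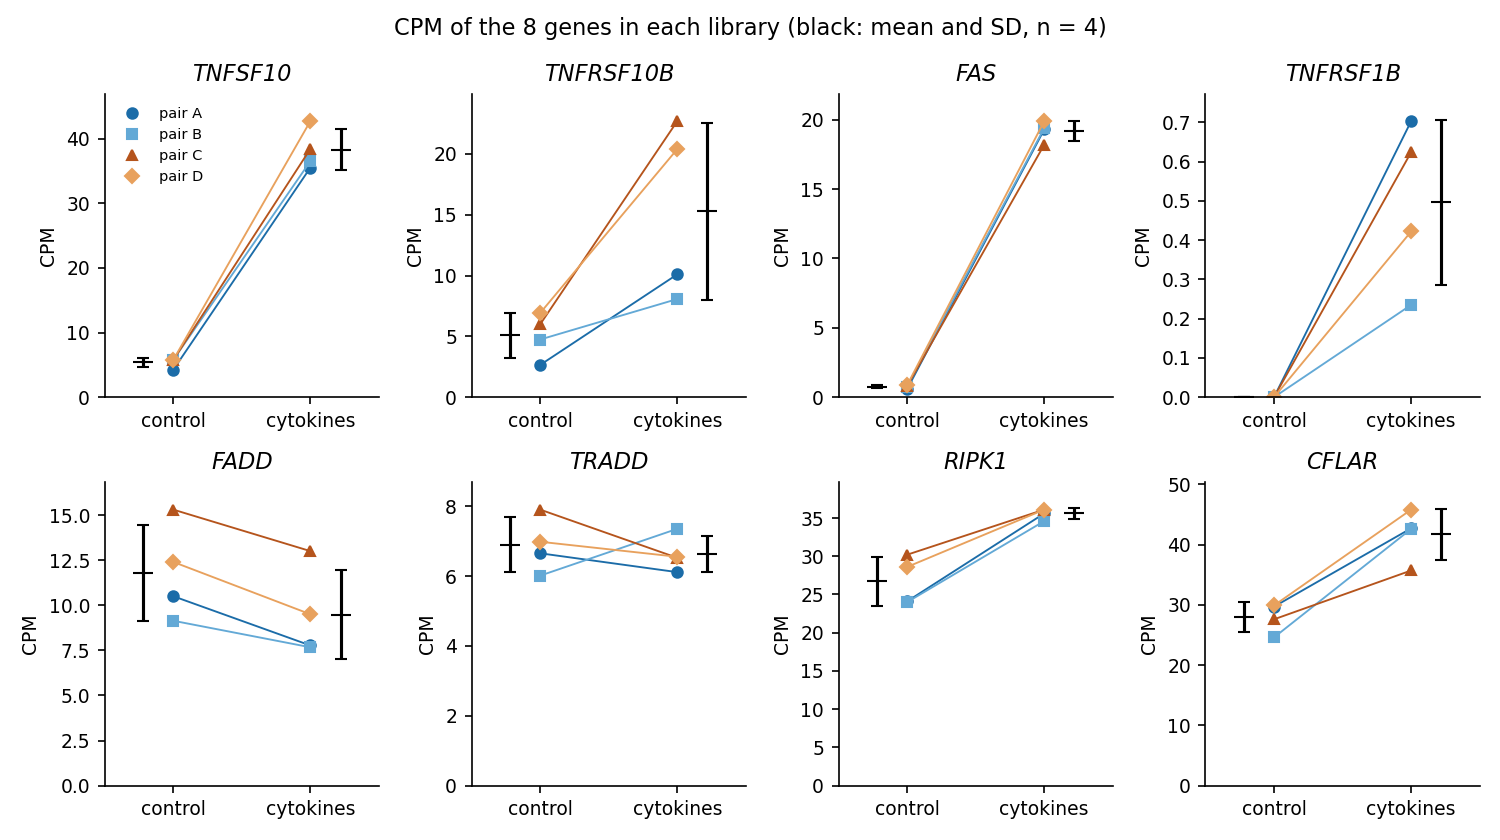
CPM of each gene in the 4 control and 4 cytokine libraries, with a line joining the libraries of a pair A to D and, in black, the mean and SD (n = 4). FAS and TNFSF10 rise steeply from narrow control groups to 19.2 and 38.3 CPM on average, TNFRSF10B splits by pair, and FADD and TRADD overlap between groups.

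Because several of these genes rose together, the stretches before their transcription starts were searched for the letters of sites that interferon and NF-κB factors are known to bind. Sequences are those of RefSeq on GRCh38.p14, covering the 250 bases before the first listed start of a gene, and 6 of the 8 genes had an entry that was searched. Further starts, where a gene has them, were not searched. TRADD and TNFRSF10B were not searched. The 3 motifs, read on both strands, were the interferon-stimulated response element (ISRE) core GAAANNGAA, the gamma-activated site (GAS) TTCNNNGAA and the NF-kB site. They occur in 6.88%, 6.57% and 9.96% of the 35116 RefSeq promoters in windows of the same length. In the sequences shown, 5′ to 3′ on the strand of the gene, capitals mark the matches, and the pieces, shown because they hold a match, are those outside the gene body of GENCODE 29 or, inside it, the match with at most 10 bases on each side. The first piece lies at chr3:172523508-172523680 and the second at chr3:172523466-172523494, both on the minus strand. The TNFRSF1B window is chr1:12166741-12166990 and the CFLAR piece chr2:201118609-201118638, both on the plus strand. The second TNFSF10 piece and the CFLAR piece lie inside the gene bodies of GENCODE 29, and whether they lie in an exon was not tested.
TNFSF10 upstream: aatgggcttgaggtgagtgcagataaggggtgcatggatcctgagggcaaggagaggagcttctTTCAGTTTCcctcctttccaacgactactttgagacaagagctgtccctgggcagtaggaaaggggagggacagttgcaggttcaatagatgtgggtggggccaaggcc
TNFSF10 near the start: aaacaactcaTTCGCTTTCatttcctcac
TNFRSF1B upstream: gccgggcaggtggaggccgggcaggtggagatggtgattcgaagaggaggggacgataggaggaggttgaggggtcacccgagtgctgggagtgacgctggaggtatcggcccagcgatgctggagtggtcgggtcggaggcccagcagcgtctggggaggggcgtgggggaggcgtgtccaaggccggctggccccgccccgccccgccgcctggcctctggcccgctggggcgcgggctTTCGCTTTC
CFLAR near the start: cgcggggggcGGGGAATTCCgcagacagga
TNFSF10 held the ISRE core in 2 places, 186 and 54 bases before its start, both in the reverse reading. TNFRSF1B held it once, 9 bases before the start, with the same 9 letters as the nearer TNFSF10 match. CFLAR held 1 match to the NF-kB site, 97 bases before the start. The windows of FAS, RIPK1 and FADD held none of the 3 motifs, which says only that these letters are not in those 250 bases. No match overlapped another, and whether any of them is bound was not measured.

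TNFSF10 (chromosome 3, 172505508 to 172523507, minus strand, GRCh38) encodes TRAIL, the ligand of the death receptors DR4 and DR5. It stood at 4.23, 5.76, 5.73 and 5.75 CPM in control libraries A to D, and at 35.5, 36.5, 38.4 and 42.7 CPM in cytokine libraries A to D. Every cytokine library lay far above every control library, and the spread within each group was small beside the gap. The log2 fold change on the log2(CPM + 0.1) scale was 2.82 ± 0.14 (SE, n = 4 per group; limma adjusted p = 1.70e-07). The exact 2-sided permutation test gave p = 0.0286, the smallest that 4 against 4 libraries allow, and so it did for FAS, TNFRSF10B, RIPK1 and CFLAR. Within pairs the log2 difference was 3.04, 2.64, 2.72 and 2.87.

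Among other ligand genes of the superfamily, 7 of 17 listed had a row. Of these, limma called 1 lower and no other, where 27.0% of all genes were called in either direction. EDA, which encodes ectodysplasin of skin appendage development, fell from 4.08 ± 0.818 to 1.91 ± 0.443 CPM (limma log2 fold change -1.06, adjusted p = 0.00569), where errors of CPM values are SDs over 4 libraries. TNF itself, the gene of a cytokine that was added as protein, stood at 2.15 ± 1.18 CPM in control and 4.77 ± 2.47 CPM in cytokine libraries, with a log2 fold change of 1.12 that missed the threshold (limma adjusted p = 0.0735). Its difference within pairs was -0.42, 0.19, 2.48 and 2.23, so the higher values came from C and D. With the pairs as a replicate block the adjusted p was 0.0181. Leaving out 1 library gave log2 fold changes from 0.83 (adjusted p = 0.170, without control replicate C) to 1.43 (adjusted p = 0.0278, without control replicate A). TNF was named here after its values were seen.

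TNFRSF10B (chromosome 8, 23020133 to 23069179, minus strand) encodes DR5, a death-domain receptor for TRAIL. Its control libraries A to D held 2.65, 4.74, 5.99 and 6.92 CPM, and its cytokine libraries A to D 10.1, 8.07, 22.7 and 20.4 CPM. The groups did not overlap, but the lowest cytokine library, B, was close to the highest control library, D. Its log2 fold change was 1.52 ± 0.37 (SE; limma adjusted p = 0.0105), with a 95% interval from 0.70 to 2.35. The difference within pairs was 1.90, 0.76, 1.90 and 1.54, so the rise was present in each pair and smallest in B. TNFRSF10B had the widest spread of the 8 genes in each group that was above 0, with a coefficient of variation of 36.4% in control and 47.5% in cytokine libraries.

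That spread followed the second part of the column names, in a comparison added after the data were seen. Libraries C and D held more TNFRSF10B than A and B in each group. With treatment as a term, the log2 difference of 22 against 21 was 1.04 ± 0.18 (SE; limma adjusted p = 0.000887). FADD was the other member called, at 0.50 ± 0.13 (adjusted p = 0.0104), just past the fold threshold. Called genes made up 20.7% of the table in this comparison, against 2 of 8 members. FADD was not called after TMM scaling, at 0.38, and leaving out 1 library also ended its call for control B (0.47), control C (0.44), cytokine B (0.49) and cytokine C (0.41). A difference of the treatment effect between 21 and 22 was detected for 0 of the 8 members in limma, the only tool used. The adjusted p was 0.999 for each, and 0 were below an unadjusted p of 0.05. Of all genes, 0.0303%, or 5 in number, were called in that interaction. For TNFRSF10B the interaction estimate was 0.40 ± 0.36 (SE). Over the 8 members the SE of this estimate ran from 0.17 to 0.82, so differences of that size could have been missed.

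TRAIL also binds decoy receptors, which lack a working death domain, and 2 of these were looked at after their values were seen. TNFRSF10C stood at 1.23 ± 0.572 CPM in control and 1.86 ± 0.489 CPM in cytokine libraries (log2 fold change 0.65, limma adjusted p = 0.194), and the groups overlapped. With the pairs as a replicate block the same difference had an adjusted p of 0.0225. TNFRSF10D held 4 to 19 reads in control and 6 to 59 reads in cytokine libraries, and its log2 fold change of 0.38 (adjusted p = 0.664) turned to -0.12 without cytokine replicate C. Of the 3 decoy receptor genes with a row, 1 was called, where 27.0% of all genes were. This was TNFRSF11B, the gene of osteoprotegerin, a soluble receptor that binds RANKL and TRAIL, which rose from 1.30 ± 0.761 to 18.6 ± 9.96 CPM (log2 fold change 3.76, adjusted p = 5.01e-05). Cytokine library C held 33.4 CPM of it, against 12.0 to 15.4 CPM in the other cytokine libraries.

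FAS (chromosome 10, 88990582 to 89015785, plus strand) encodes CD95, the death-domain receptor of Fas ligand. It stood at 0.577, 0.762, 0.796 and 0.860 CPM in control libraries A to D, which was 27 to 44 reads. In cytokine libraries A to D it reached 19.3, 19.4, 18.2 and 19.9 CPM, or 904 to 989 reads. The coefficient of variation among its cytokine libraries was 3.69%, the smallest of the members after RIPK1. FAS had the largest log2 fold change of the 8 genes in this fit, 4.52 ± 0.17 (SE; limma adjusted p = 1.88e-08). The value depends on the pseudocount at these control levels, from 3.53 with a pseudocount of 1 to 4.84 over the alternatives, and the call held in all 22.

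ACTA2, the gene of smooth muscle actin, lies on the opposite strand and shares 380 of the 4253 exon bases of FAS in GENCODE 29. ACTA2 stood at 0.107, 0.847, 0.896 and 0.899 CPM in control and at 6.88, 9.97, 10.1 and 8.56 CPM in cytokine libraries, a log2 fold change of 3.74 (limma adjusted p = 0.000161). The libraries were strand-specific and the counting is described as using default settings, which use strand. The part of overlapping reads in either value was not tested. ACTA2 is also 1 of the 3 stromal markers with a row of 6 listed. The summed level of the 3, ACTA2 included, was 3.96 to 6.19 CPM in control and 13.3 to 16.3 CPM in cytokine libraries. Of the 3 only ACTA2 was called, where 27.0% of all genes were, and COL1A1 and PDGFRB were not.

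TNFRSF1B (chromosome 1, 12167003 to 12209228, plus strand) encodes TNF receptor 2, which recruits TRAF2 and has no death domain. In the deposited CPM values it stood at 0 reads in each of the 4 control libraries, where up to 0.0641 CPM is allowed by the limit of 3 reads per library. In cytokine libraries A to D it held 0.703, 0.235, 0.624 and 0.422 CPM, which was 11 to 33 reads. In the deposited values the cytokine mean was therefore at least 7.73-fold higher than the control limit, a bound for counting error only. Only 2 of the 8 libraries, both of cytokine cultures, exceeded 0.5 CPM, so this gene needed columns not used here to enter the table. Its difference is therefore a description and no test is given for it. The fitted log2 fold change of 2.50 is no bound, because it depends on the pseudocount and ran from 0.57 to 7.68 over the alternatives. The other 7 genes exceeded 0.5 CPM in every control and every cytokine library.

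Other receptors of the superfamily were counted from lists. Of 3 further receptor genes with a row, TNFRSF21, TNFRSF25 and EDA2R, 0 were called by limma, against 27.0% of all genes. TNFRSF21 and TNFRSF25 encode death-domain receptors, while EDA2R encodes a receptor without a death domain. The most abundant, TNFRSF21 (DR6), stood at 16.3 ± 3.83 and 20.0 ± 4.85 CPM in control and cytokine libraries (log2 fold change 0.29, adjusted p = 0.301). Of 8 other listed receptor genes without a death domain, 5 were called higher and 2 lower, against 9.52% and 17.5% of all genes. TNFRSF9, which encodes the costimulatory receptor 4-1BB, held 0 to 8 reads in control and 32 to 143 reads in cytokine libraries, and is among the 5. It exceeded 0.5 CPM in 0 control and 4 cytokine libraries, so it is in the table through columns where it is high, and its difference is no test. Its fitted log2 fold change of 3.19 ran from 1.22 to 4.69 over the alternatives. TNFRSF12A, the receptor of the cytokine TWEAK, rose from 10.6 ± 0.966 to 50.5 ± 11.7 CPM (log2 fold change 2.23, adjusted p = 3.76e-06). TNFRSF14, the herpesvirus entry mediator HVEM, rose from 44.8 ± 2.51 to 171 ± 3.49 CPM and was named after its values were seen. TNFRSF11A, the receptor RANK, fell from 55.6 ± 7.91 to 36.1 ± 1.85 CPM (log2 fold change -0.61, adjusted p = 0.00391), but was not called after TMM scaling, at -0.46. TNFRSF13C, the receptor of the B-cell factor BAFF, was called lower at -1.39 with overlapping groups (adjusted p = 0.0450), and was not called in 11 of 22 alternatives.

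FADD (chromosome 11, 70203163 to 70207390, plus strand) encodes the adaptor that links death receptors to caspase-8. Its control libraries A to D held 10.5, 9.14, 15.3 and 12.4 CPM, and its cytokine libraries A to D 7.77, 7.67, 13.0 and 9.50 CPM. The groups overlapped, while each cytokine library was below the control library of its pair, by -0.43, -0.25, -0.24 and -0.38 on the log2 scale. Its log2 fold change was -0.32 ± 0.21 (SE; limma adjusted p = 0.278), with a 95% interval from -0.79 to 0.15. With the pairs as a replicate block in limma, on library totals, the adjusted p was 0.0135, and the change stayed under the fold threshold. The same block in edgeR with TMM gave a log2 fold change of -0.17 (adjusted p = 0.136). The antisense gene AP000879.1 shares 1011 of the 1841 exon bases of FADD in GENCODE 29.

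TRADD (chromosome 16, 67154180 to 67160298, minus strand) encodes the adaptor that TNF receptor 1 recruits through its death domain. Control libraries A to D held 6.65, 6.01, 7.90 and 6.98 CPM, and cytokine libraries A to D 6.11, 7.35, 6.52 and 6.55 CPM. The groups overlapped throughout. The log2 fold change was -0.05 ± 0.15 (SE; limma adjusted p = 0.837), with a 95% interval from -0.38 to 0.28, and its sign turned with the scaling, to 0.10 with TMM.

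RIPK1 (chromosome 6, 3063991 to 3115187, plus strand) encodes the death-domain kinase shared by the survival, apoptosis and necroptosis branches. It stood at 24.1, 24.0, 30.2 and 28.6 CPM in control libraries A to D and at 35.6, 34.6, 36.1 and 36.1 CPM in cytokine libraries A to D. The groups did not overlap, and the cytokine libraries were the closest together of any member, with a coefficient of variation of 1.99%. In the fit the log2 fold change was 0.42 ± 0.12 (SE; limma adjusted p = 0.0199), below the fold threshold, so RIPK1 was not called. With TMM scaling it was 0.57 (adjusted p = 0.00103) and the gene was called, as it was in edgeR with TMM, in DESeq2 and with GAPDH scaling. Without control replicate B the adjusted p was 0.0655, and without cytokine replicate A it was 0.0527.

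CFLAR (chromosome 2, 201116104 to 201176687, plus strand) encodes c-FLIP, the caspase-8 homologue that binds FADD without full protease activity. Control libraries A to D held 29.7, 24.6, 27.6 and 29.9 CPM, and cytokine libraries A to D 42.7, 42.6, 35.7 and 45.8 CPM. The groups did not overlap, and cytokine library C was the lowest of its group. CFLAR had a log2 fold change of 0.57 ± 0.12 (SE; limma adjusted p = 0.00526), which is close to the fold threshold, and it ran from 0.51 to 0.78 over the alternatives, all of them called. Long and short isoforms of c-FLIP, which can differ in action, are counted together at the gene level.

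**Figure D2:**
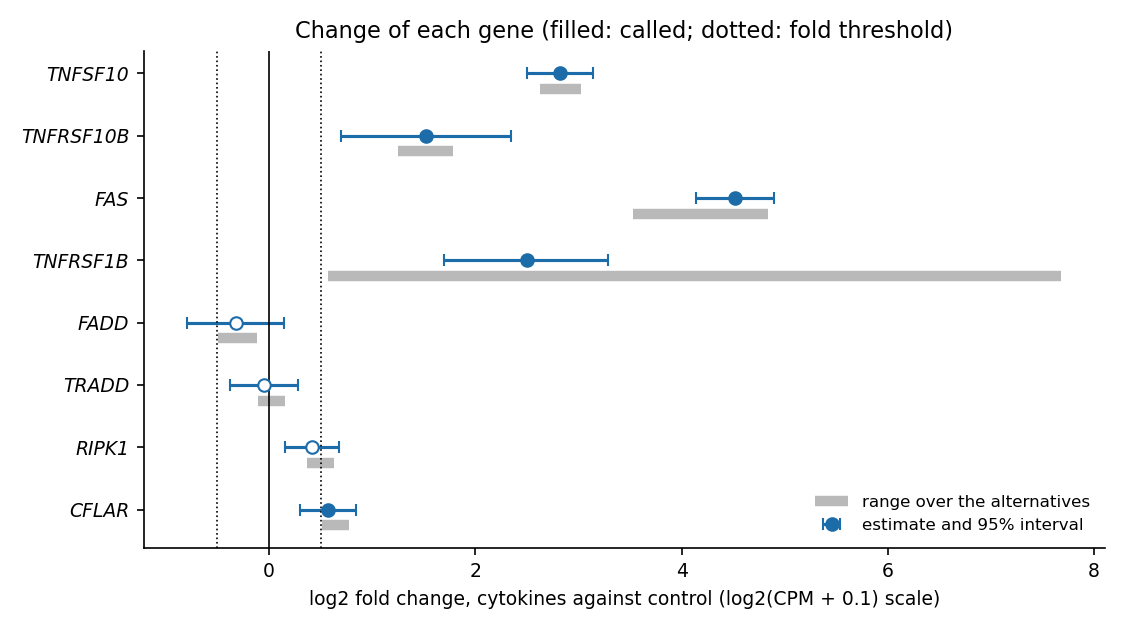
Log2 fold change of each gene, cytokines against control, with its 95% interval from limma (points, n = 4 per group, filled where called) and the range over the alternatives (grey bars, each on the scale of its own tool or pseudocount). The intervals of TNFSF10, TNFRSF10B and FAS lie above the fold threshold of 0.5, and that of CFLAR runs from 0.30 to 0.84. TNFRSF1B entered the table only through columns other than control, so its interval and filled point are no test. The grey bar of TNFRSF1B runs from 0.57 to 7.68.

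Ratios of reads within a library do not depend on any scaling, and 3 were computed after the values were seen, as descriptions. CFLAR had 2.82, 2.69, 1.80 and 2.42 reads for each read of FADD in control libraries A to D, and 5.50, 5.55, 2.75 and 4.82 in cytokine libraries A to D. The ratio was higher in the cytokine library of each pair, but cytokine library C, at 2.75, lay below control library A. RIPK1 had 3.63 to 4.10 reads for each read of TRADD in control libraries and 4.71 to 5.83 in cytokine libraries, with no overlap. CFLAR had 44.8 to 694 reads for each read of CASP8 in control libraries, where CASP8 was counted at only 2 to 26 reads, and 8.82 to 11.3 in cytokine libraries. CFLAR thus outnumbered CASP8 in reads in every library, by less in every cytokine library. These ratios are not corrected for length, and CFLAR has 22529 merged exon bases. They therefore compare libraries, not the levels of the genes with each other.

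**Figure D3:**
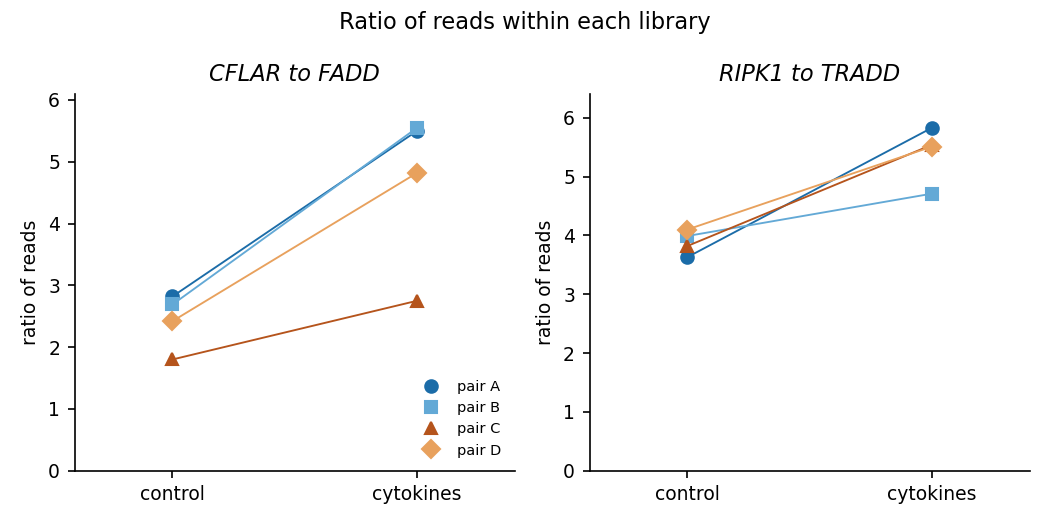
Reads of CFLAR for each read of FADD, and of RIPK1 for each read of TRADD, in each library, with a line joining the libraries of a pair A to D. Each line goes up from control to cytokines, and pair C has the lowest CFLAR to FADD ratio in each group, at 1.80 and 2.75.

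Levels of different genes were compared per length, as reads per exon base in GENCODE 29, scaled to 1000000 per library (TPM). In control libraries FADD (25.2 ± 8.69 TPM, SD, n = 4) and RIPK1 (24.5 ± 6.20 TPM) led and overlapped each other. TRADD followed at 10.4 ± 2.48 TPM, above TNFSF10 at 5.98 ± 1.44 TPM without overlap. CFLAR, at 4.78 ± 0.918 TPM, and TNFRSF10B, at 3.90 ± 1.85 TPM, overlapped their neighbours. FAS stood apart at 0.685 ± 0.191 TPM. CFLAR has 22529 exon bases when all its transcripts are merged, which lowers its TPM against a single transcript.

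In cytokine libraries TNFSF10 had the highest mean, 46.1 ± 9.16 TPM, and overlapped RIPK1 at 35.0 ± 4.70 TPM. FADD, at 21.7 ± 7.64 TPM, overlapped RIPK1 above it and FAS, at 18.7 ± 2.31 TPM, below it. TNFRSF10B, at 12.8 ± 7.24 TPM, overlapped FAS and TRADD, the latter at 10.7 ± 1.33 TPM. CFLAR, at 7.68 ± 1.22 TPM, overlapped TRADD, and TNFRSF1B was the lowest at 0.548 ± 0.229 TPM. FAS moved from the rank of 7 to 4 and TNFSF10 from 4 to 1, while FADD went from 1 to 3.

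Below and beside the receptors, 59 of 80 other listed genes of the pathway had a row, and 17 were called higher and 4 lower. Their median log2 fold change was 0.21, against 1.05 for the 8 members, TNFRSF1B included, and -0.17 for all genes. Of them 35.6% were called, against 27.0% of all genes. The called genes include TNFRSF9, CASP8, CASP10 and MLKL, which exceeded 0.5 CPM in at most 1 control library. These passed the filter of the table through columns where they are high, so the share is a description and no test. In the receptor complex, with its ubiquitin ligases and kinases, 5 of 23 genes were called, all higher. That is 21.7%, below the share of all genes, and 9 of the 23 had an adjusted p below 0.05 when the fold threshold is left aside. BIRC3, the ubiquitin ligase cIAP2 that modifies RIPK1, rose from 0.764 ± 0.144 to 6.27 ± 2.60 CPM (log2 fold change 2.82, limma adjusted p = 3.15e-05). RBCK1, the HOIL-1 subunit of the linear ubiquitin chain complex, rose from 385 ± 88.6 to 766 ± 188 CPM (log2 fold change 0.99, adjusted p = 0.00601).

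In the caspase branch 5 of 13 genes were called higher and 1 lower, 46.2% together, against 9.52%, 17.5% and 27.0% of all genes. The 5 include CASP8 and CASP10, which are in the table through columns where they are high, so this share is no test. CASP8, the initiator caspase that FADD recruits, rose from 0.0428, 0.550, 0.338 and 0.332 CPM in control libraries A to D to 4.83, 4.83, 3.16 and 4.58 CPM in cytokine libraries A to D. Its fitted log2 fold change was 3.59 ± 0.42 (SE), from control libraries of 2 to 26 reads, and ran from 2.02 to 3.96 over the alternatives. Only 1 control library exceeded 0.5 CPM, against 4 cytokine libraries, so CASP8 too is in the table through columns where it is high. Its difference is therefore a description as well, without a test. CASP10, its neighbour and homologue, held 0.218 ± 0.137 CPM in control and 0.967 ± 0.449 CPM in cytokine libraries, with overlapping groups, and was named after its values were seen. It exceeded 0.5 CPM in 0 control and 3 cytokine libraries, so it needed a column not used here to enter the table. The difference of CASP10 is therefore no test either. CASP6 was called lower at -0.70 with overlapping groups (adjusted p = 0.0398), and was not called in 10 of 22 alternatives.

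In the necroptosis branch, 2 of 4 listed genes had a row. MLKL, the pore-forming effector of necroptosis, rose from 0.535, 0.190, 0.119 and 0.176 CPM in control libraries A to D to 22.2, 22.9, 13.1 and 16.9 CPM in cytokine libraries A to D. Its control libraries held 6 to 25 reads, with 1 above 0.5 CPM, and its cytokine libraries 651 to 1071, so MLKL is likewise in the table through the cytokine columns. The fitted log2 fold change of 5.82 ± 0.33 (SE) was the largest of the 67 genes of these lists and members in this fit. It ran from 3.96 to 6.36 over the alternatives. Because of the filter this difference is a description, and no test is given for it.

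**Figure D4:**
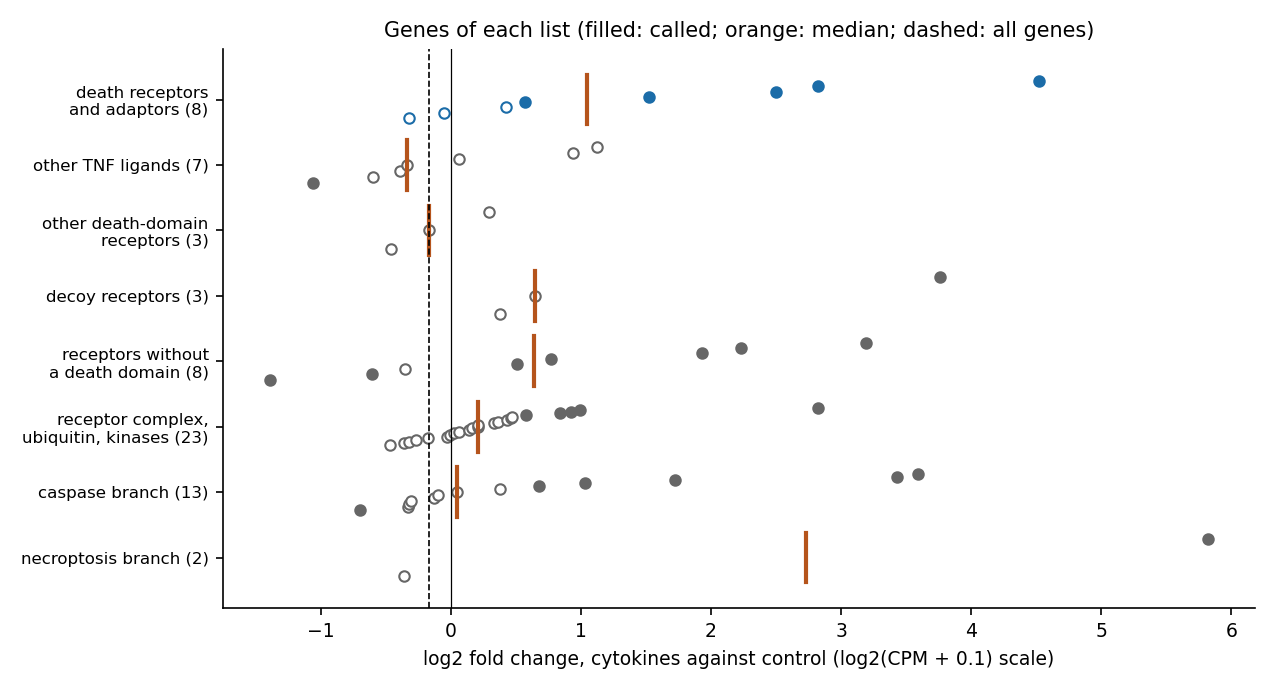
Log2 fold change of each gene with a row, cytokines against control, by list, with the number of genes in brackets (filled where called, orange bars at the median of the list, dashed line at the median of all genes, -0.17). MLKL, at 5.82, and FAS, at 4.52, lie farthest to the right, and the genes of the receptor complex lie mostly between the fold thresholds. EDA2R, which encodes a receptor without a death domain, is drawn with the other death-domain receptors.

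For each called gene, the genes with the nearest profile over the 8 libraries were found by the Euclidean distance of centred log2(CPM + 0.1) values. FAS was nearest to MX1 (distance 0.343, log2 fold change 4.35) and OAS1 (0.348, 4.46). TNFSF10 was nearest to CTSO (0.435, 2.90) and APOBEC3G (0.489, 2.79). CFLAR was nearest to ZNF532 (0.198, 0.55) and MTF2 (0.237, 0.47). The nearest genes of TNFRSF10B, PLPP2 (0.648) and LAYN (0.681), and of TNFRSF1B, STX11 (0.731) and AREG (0.843), lay farther away. The distance measures the likeness of the values in these 8 libraries alone.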

How the data were processed

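The authors prepared strand-specific mRNA libraries, sequenced paired reads, removed low-quality reads with SOAPnuke, aligned with TopHat 2.1.1 to GRCh38 and counted with HTSeq 0.9.1 on Ensembl release 107. Genes that exceeded 0.5 CPM in 4 or more samples were kept, and the CPM values of these genes were deposited. All values used (100%) were whole numbers of reads within 0.1 reads once divided by the CPM of 1 read, which gave the reads behind them. Values in 4 further columns were not used. Precision from depth is 0.0196 to 0.0214 CPM per read, and limits from 3 reads cover counting error only.

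Fold changes were fitted with limma 3.58.1 in R 4.3.3, as the unit is CPM, on log2(CPM + 0.1) with an intensity trend and no block, adjusting p-values over 16525 genes. edgeR 4.0.16 and DESeq2 1.42.0 were run on the recovered reads as alternatives, beside other pseudocounts, scalings and filters and each library left out in turn. Limma with the intensity trend, edgeR with TMM and DESeq2, each with treatment as the only term, were tested on simulated counts. The simulation held no differences between pairs or endings, and the other alternatives were not simulated. Pairs A to D come from the first part that column names share, since these names carry no replicate number. Deviations from the group means correlated by 0.57, 0.59, 0.80 and 0.74 within pairs A to D, but as well between control A and cytokine B (0.57) and control B and cytokine A (0.59). TPM used GENCODE 29 exon lengths, matched for 16167 genes. The tables and figures were made with Python 3.11.15, pandas 2.3.3 and matplotlib 3.10.9.

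The members and lists were chosen with earlier results of these data known. The text names every member, of each list the 2 largest rises and 2 largest falls among called genes (where none was called, the most abundant gene), and for each called member the 2 nearest profiles. Some genes that this rule names are not reported here. Other genes are marked as named after their values were seen. Comparisons by the second part of the column names, ratios of reads, within-pair differences and TPM were added after seeing the data.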

Additional observations from a re-analysis of the deposited data

Results flagged for a closer look

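In 4 of 55 groups of libraries, for the genes named above, 1 library stood apart by Dixon's criterion (a gap to the nearest library that takes up most of the range of the group), where chance gives about 1 in 20. TNFSF10 in control library A, at 4.23 CPM against 5.73 to 5.76 CPM in the other control libraries, had a gap of 0.984 of the range. ACTA2 in control library A, at 0.107 CPM against 0.847 to 0.899 CPM, had a gap of 0.933. CASP8 in cytokine library C, at 3.16 CPM against 4.58 to 4.83 CPM, had a gap of 0.849. TNFRSF11B in cytokine library C, at 33.4 CPM against 12.0 to 15.4 CPM, had a gap of 0.838. Without control replicate A the log2 fold change of TNFSF10 was 2.71, against 2.82 with all libraries, the lowest value found when 1 library was left out.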

How the results depend on the processing

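The number of members called was 5, between 4 and 6 over 14 alternatives, and 5 each time 1 of the 8 libraries was left out; none was called lower in any of the 22. The count was 4 with a filter at a mean of 1 CPM, which TNFRSF1B does not pass, and 6 where RIPK1 was called. Of the other genes of the pathway 21 were called, and 17 to 27 over all alternatives. Each of TNFSF10, TNFRSF10B, FAS and CFLAR kept its direction and its call in all 22 alternatives. The log2 fold change of TRADD turned to 0.10 with TMM scaling, 0.11 with median-of-ratios scaling, 0.16 with GAPDH scaling, 0.10 in edgeR with TMM, 0.11 in DESeq2 and 0.02 without control replicate C (-0.11 to 0.02 with 1 library left out); the scalings move every gene up by construction. With a replicate block for the 4 pairs, 5 members were called in limma and 6 in edgeR with TMM, where TRADD stood at 0.10, and no other call of a member changed. TNFRSF10D ran from -0.12 to 0.72 with 1 library left out. TNFRSF13C lost its call without control replicates A (-1.05), B (-1.45) or D (-1.27) and without cytokine replicates A (-1.38), B (-1.51) or C (-1.09). CASP6 lost it without control replicates A (-0.76), C (-0.56) or D (-0.66) and without cytokine replicates A (-0.61), B (-0.62) or D (-0.77). The cause was not tested.

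Between libraries with 21 and with 22 in their names, the differences of members that were not called turned in sign: FAS to -0.03 in edgeR with TMM, TRADD to -0.03 with TMM in limma and in edgeR, and CFLAR to -0.12 in both. With 1 library left out CFLAR ran from -0.07 to 0.09 (-0.03 without control replicate D, -0.05 without cytokine replicate D), and TNFRSF1B from -0.15 to 0.35. TNFRSF10B kept its call there, from 0.91 to 1.24. Depth limits TNFRSF1B most, at 0 reads in control and at most 33 reads in cytokine libraries.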
